A study of Mus musculus with 2 samples.

Results

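A total of 58 of the 1021 miRNA genes with a symbol beginning in Gm had at least 1 sense read in left cerebral cortex, out of 2202 annotated miRNA genes in all. Gm symbols are placeholder names for gene predictions, and these genes were entered in the GENCODE M21 annotation as miRNA genes without a Mir symbol. The members were chosen by their counts, as the Gm-named genes whose sense counts in the 2 libraries summed to 1 or more, so their levels are a description and carry no test. The label of genes without a miR name did not hold for all of them. RefSeq places a named mature miRNA inside 5 of the 58, and the most abundant member, Gm23450, is the gene of mmu-miR-935.

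The tissue came from B6CASTF1/J mice, the first-generation cross of C57BL/6J with CAST/EiJ, adults aged 18 to 20 months for which the labels name no treatment. Both libraries form 1 group, numbered as biological replicates 1 and 2 and each sequenced as technical replicate 1, prepared from total RNA with a size range under 30 nucleotides. The source name and the sex field give female and the free-text description gives male. The libraries carry 1 donor identifier and 2 biosample identifiers, so the spread between them may be technical. The labelled tissue was checked on 3 miRNAs of neurons, Mir132 (38067 ± 6199 CPM), Mir128-1 (17218 ± 4441 CPM) and Mir137 (6618 ± 2001 CPM), and all 3 were abundant. Mir9-1, also a miRNA gene of brain, was outside this check and was far lower, with 85 and 84 sense counts. The reason for its low count was not tested. The check thus covers the 3 selected genes only and does not tell cortex from other tissue with neurons. In whole tissue, fewer cells of a type and less RNA per cell cannot be told apart. CPM is the sense count of a gene per 1000000 sense counts of all miRNA genes in that library, and values are mean ± SD of the 2 libraries (n = 2).

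An animal miRNA is cut from a hairpin in a longer transcript by Drosha and then by Dicer, and it binds messages mainly through its seed, bases 2 to 8 from its 5′ end. A mirtron is a short intron that forms the hairpin itself and is released by splicing instead of Drosha. Automatic annotation predicts miRNA genes from likeness to known hairpins. Such predictions can also fall on repeats, on exons of other genes and on other structured small RNAs, among them small nucleolar RNAs (which guide the modification of ribosomal RNA), transfer RNA and the RNA of the signal recognition particle.

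The mature miRNAs that RefSeq (GRCm38.p6) places inside members are shown first, because they give the named products of these genes. Capitals mark the seed.
mmu-miR-935: cCCAGUUAccgcuuccgcuaccgc
mmu-miR-3552: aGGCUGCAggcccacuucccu
mmu-miR-9768-5p: uGGCACUCggaggacggcacugu
mmu-miR-9768-3p: aCUGCCUUccuuuguguggcccag
mmu-miR-9769-5p: aGGCACAGaauuaggcccgacc
mmu-miR-9769-3p: uAGGGUCUguucuguguccucc
mmu-miR-3154: cAGAAGGGgagucgggagcgga
None of the 7 seeds was found in any other of the 1679 mature mouse miRNAs in the RefSeq table, so each stands alone there. The hosts of these sequences are Gm23450 for miR-935, Gm22650 for miR-3552, Gm38671 for both miR-9768 arms, Gm38670 for both miR-9769 arms and Gm23363 for miR-3154.

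Gm23450 held most of the counts. It had 2397 sense counts in replicate 1 and 1382 in replicate 2, which is 463.9 and 309.9 CPM (386.9 ± 108.9 CPM). The exact 95% Poisson interval was 2302 to 2495 counts in replicate 1 and 1310 to 1457 in replicate 2, covering counting error only. Gm23450 ranked 132 among all 2202 genes by mean CPM. Its hairpin lies on the plus strand at chr7:3415066-3415156 (mm10), wholly within a coding exon of Cacng8, an auxiliary subunit of AMPA-type glutamate receptors. No other miRNA gene lay within 10 kb and no other miRNA gene shared a stretch of 20 nucleotides with it. In the hairpin below, capitals mark mature miR-935, which occupies bases 55 to 78 of 91, on the 3′ side.
Gm23450: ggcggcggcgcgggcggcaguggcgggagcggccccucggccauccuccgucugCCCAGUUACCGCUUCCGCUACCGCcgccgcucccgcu
The GC content of this hairpin was 79.1%. RNAfold gave it 1 hairpin loop and a minimum free energy of -55.4 kcal/mol.

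Over the 58 genes, 2892 sense reads were counted in the first library and 1766 in the other, or 559.7 and 396.0 CPM (477.9 ± 115.8 CPM). Their share of the sense total was 0.0560% in the first library (0.0540% to 0.0581%, exact 95% binomial interval) and 0.0396% in the other (0.0378% to 0.0415%). Gm23450 alone made up 82.9% of the members' counts in replicate 1 (81.5% to 84.2%) and 78.3% in replicate 2 (76.3% to 80.2%). Without it the other members summed to 495 and 384 counts, or 91.0 ± 6.86 CPM. The difference in the summed level between the libraries was thus mostly the difference at Gm23450.

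Detection was thin for most members. The pooled count was 1 for 16 genes, 2 for 11, 3 to 5 for 9, 6 to 9 for 6, 10 to 99 for 12 and 100 or more for 4. The genes just inside the rule had 1 read in 1 library, and the 963 Gm-named genes just outside it had none in either. Reads were found in both libraries at 28 members, in replicate 1 only at 13 and in replicate 2 only at 17, and no member counted in 1 library only exceeded 7 reads. The median pooled count was 4, against 53 for the 708 Mir-named genes with a sense count. Of the Gm-named genes 5.68% had a sense count and of the 1174 Mir-named genes 60.3%, while over all miRNA genes the share was 35.0%. For a gene without reads, the limit set here was the level of 3 reads, 0.581 CPM (replicate 1) or 0.673 CPM (replicate 2). The exact 95% Poisson interval of a count of 0 reaches somewhat higher, to 3.69 reads. Neither is an upper limit for a gene with copies, whose reads can map to several places and enter no gene count.

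**Figure D1:**
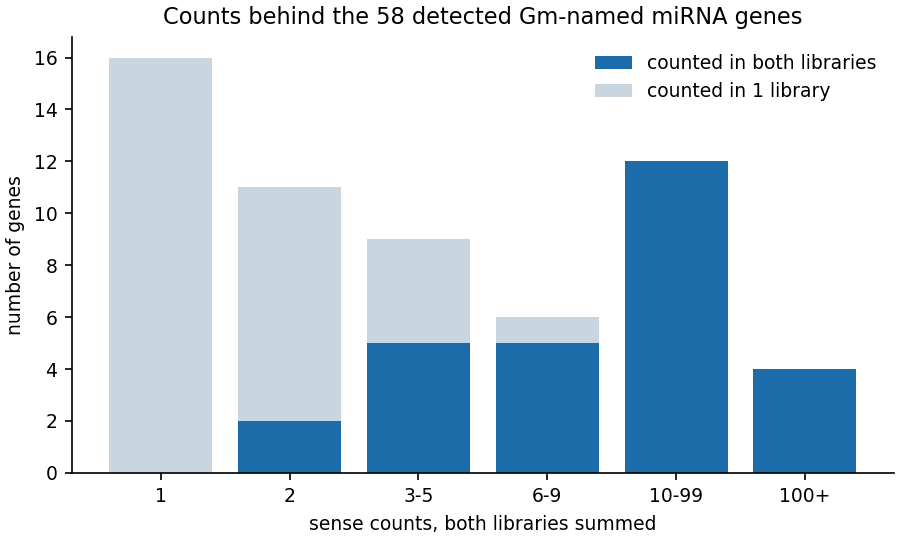
Number of detected Gm-named miRNA genes (vertical axis) by sense counts summed over both libraries (horizontal axis), with dark bars for genes counted in both libraries and pale bars for genes counted in 1. All 16 genes with 10 or more counts were counted in both libraries, and all 16 genes with 1 count necessarily in 1.

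A level of 2 CPM or more in both libraries was reached by 9 members, against 18.6% of all miRNA genes; since the members were chosen on these counts, nothing is read from that share. Sense counts in both libraries were present at 28.1% of all miRNA genes, and a pooled count of 10 or more at 23.3% of them and at 16 members. After Gm23450 the highest were Gm49347, Gm24270, Gm24589, Gm23935 and Gm26117, between 20.3 and 6.19 CPM. Gm47277, Gm47295 and Gm25745 complete the 9, and the last of these stood just above 2 CPM in both libraries. Gm24197, with 15 and 8 counts, lay just outside, with levels of 2.90 and 1.79 CPM.

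**Figure D2:**
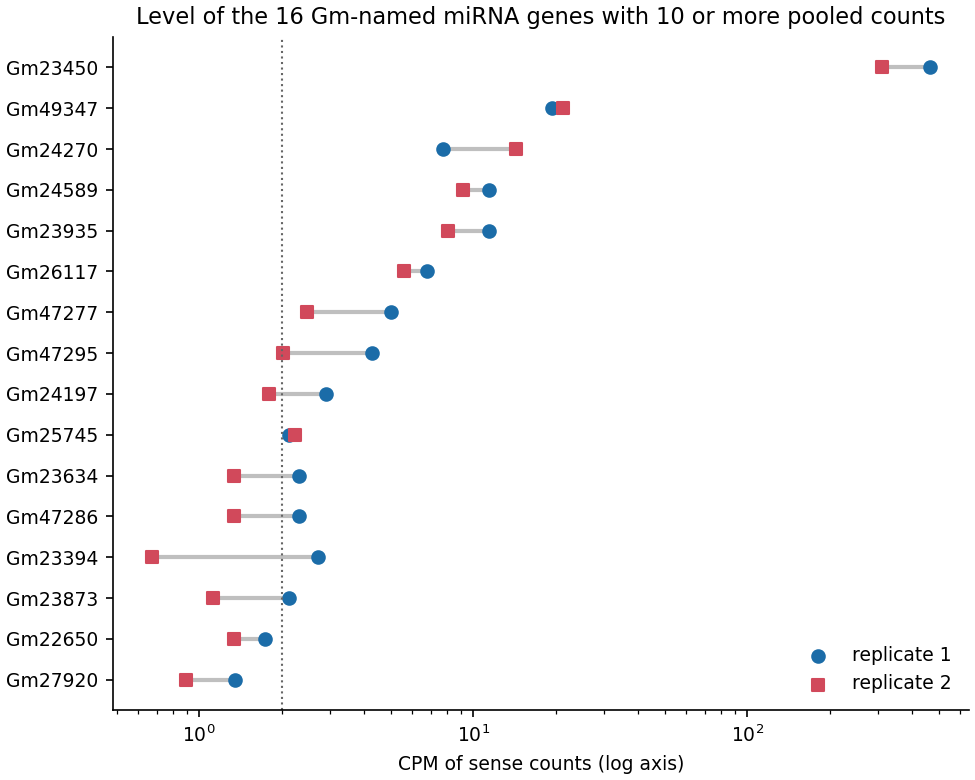
Level of the 16 members with 10 or more pooled counts in CPM of sense counts (horizontal, log axis), with circles for replicate 1, squares for replicate 2 and a dotted line at 2 CPM. Gm23450 stands apart at 463.9 and 309.9 CPM, and the next gene, Gm49347, is at 19.4 and 21.3 CPM.

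The remaining named miRNAs were rare. Gm22650 had 9 counts in replicate 1 and 6 in replicate 2 (1.54 ± 0.280 CPM). It lies on the plus strand at chrX:146999405-146999509, in an intron of Htr2c, a serotonin receptor gene, and carries miR-3552 on the 5′ side, at bases 20 to 40, shown in capitals.
Gm22650: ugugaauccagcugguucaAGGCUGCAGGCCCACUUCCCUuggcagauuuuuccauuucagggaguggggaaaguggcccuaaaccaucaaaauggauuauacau
Other miRNA genes of the same neighbourhood had counts as well. Mir764, 2749 bases away, had 56 and 47 counts (10.7 ± 0.213 CPM), and Mir1912, 9931 bases away, had 3 and 7. Gm22650 thus lay below Mir764 in both libraries, and its counts of 9 and 6 lay above those of Mir1912 in replicate 1 and below them in replicate 2. Gm38671 (chr8:12947941-12948070), in an exon of Mcf2l that is partly UTR, had 4 and 2 counts. Gm38670 (chr7:30552828-30552904), in an exon of the small heat shock protein gene Hspb6, and Gm23363 (chr2:32318265-32318343) each had 1 count, in replicate 2. Gm23363 lies opposite an intron of Dnm1, the dynamin gene of synaptic vesicle uptake, and 116 bases from Mir199b, which had no count in either library. Together the 5 genes with a RefSeq mature miRNA held 2410 counts in replicate 1 and 1392 in replicate 2.

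Genes of another class of small RNA overlapped 7 of the 58 members (12.1%), against 15 of the 963 undetected Gm-named genes (1.56%) and 12 of the 708 detected Mir-named genes (1.69%). These shares are descriptions without a test. The 7 genes held 157 counts in replicate 1 and 125 in replicate 2 (29.2 ± 1.67 CPM), the largest sum after the RefSeq-named group. Gm49347 (chr18:35557132-35557242, plus strand) led them with 100 and 95 counts (20.3 ± 1.38 CPM). It shares 96 of its 111 bases with Snora74a, an H/ACA box small nucleolar RNA, on the same strand. The nearest miRNA gene, Mir1949, 2495 bases away, had 15 and 7 counts and so lay below Gm49347 in both libraries.

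Small nucleolar RNA genes also underlie Gm47277, Gm49346 and Gm47284. Gm47277 (chr8:13876091-13876184), in an intron of Champ1, had 26 and 11 counts and shares 88 of its 94 bases with the small nucleolar RNA gene Gm24698. Gm49346 (chr16:23110753-23110858), with 1 and 5 counts, shares 103 of 106 bases with Snora81, inside the translation factor gene Eif4a2. Gm47284 (chr7:109521249-109521368), in an intron of the ribosomal protein gene Rpl27a, had 2 counts in replicate 1 and none in replicate 2, and shares 89 of 120 bases with the small nucleolar RNA gene Gm24888. Of these, Gm47277 alone reached 2 CPM in both libraries.

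Gm47295 and Gm47299 lie at the end of Rn7s1 and Rn7s2, genes for the RNA of the signal recognition particle, which steers nascent secreted proteins to the endoplasmic reticulum. Gm47295 had 22 counts in replicate 1 and 9 in replicate 2. Gm47299 had 0 and 4. Gm47299, of 80 bases, begins with all 79 bases of Gm47295. A read wholly inside Gm47295 therefore has more than 1 place, so the counts of both genes and the order between them are uncertain. This holds also where Gm47295 is listed by its level or its log2 ratio. Gm44456 (chr13:21924928-21925016, minus strand) had 6 and 1 counts and covers the RefSeq transfer RNA gene n-TStga2, for which the table used gives no strand. Gm44456 shares a stretch of 20 nucleotides with n-TSaga9 and n-TStga1, also entered as miRNA genes, so its counts are uncertain too. Its sequence is shown because the capitals mark how much of the predicted miRNA gene is the other RNA, 82 of 89 bases.
Gm44456: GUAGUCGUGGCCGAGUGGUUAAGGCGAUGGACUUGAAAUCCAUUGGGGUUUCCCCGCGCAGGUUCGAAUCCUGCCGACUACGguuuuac
Whether the reads at these 7 genes came from a miRNA or from the other RNA was not tested, since the tables hold counts per gene and no read positions.

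Gm24589 is a whole intron. It lies on the plus strand at chr17:24594978-24595071, and its first and last bases are the first and last bases of an annotated intron of Pkd1, the gene of polycystin-1, a large membrane protein. It had 59 and 41 counts (10.3 ± 1.57 CPM). In the sequence the first 2 and last 2 bases are in capitals, and they are the GU and AG of a splice donor and acceptor.
Gm24589: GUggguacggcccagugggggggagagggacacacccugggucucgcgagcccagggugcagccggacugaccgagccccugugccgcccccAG
Gm24589 was the 1 member with this arrangement of the 58. It was found at 1 of the 963 undetected Gm-named genes and at 14 of the 708 detected Mir-named genes (1.98%).

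The members Gm24270, Gm23935, Gm24245, Gm25911 and Gm23388 form a family of near-identical short sequences at unlinked places. Gm24270 (chr9:56223715-56223771, minus strand, in an intron of the kinase-like gene Peak1) had 40 counts in replicate 1 and 64 in replicate 2. Gm23935 (chr16:11144125-11144181, plus strand, opposite an intron of Zc3h7a) had 59 and 36. Gm24245 (chr4:139338304-139338360), which has no host on its strand, had 0 and 1, and these 3 genes have the same 57 bases. Gm25911 (chr1:167340369-167340424) had 4 and 0 counts and differs by 1 substitution and 1 missing base. Gm23388 (chr8:85112012-85112068), in an intron of Zfp791, had 2 and 0 counts and differs by 4 substitutions. In the sequences, capitals mark bases that differ from Gm24270 in a global alignment.
Gm24270: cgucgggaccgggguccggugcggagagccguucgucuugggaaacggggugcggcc
Gm23935: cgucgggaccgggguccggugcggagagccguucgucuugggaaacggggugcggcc
Gm24245: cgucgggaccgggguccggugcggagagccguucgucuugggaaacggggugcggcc
Gm25911: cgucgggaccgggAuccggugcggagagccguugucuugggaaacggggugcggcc
Gm23388: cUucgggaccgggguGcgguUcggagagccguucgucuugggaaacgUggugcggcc
The levels of the 3 identical genes differed from 11.0 ± 4.67 CPM at Gm24270 and 9.75 ± 2.37 CPM at Gm23935 to 1 read at Gm24245. The order of the first 2 reversed between the libraries. A read that lies wholly inside the shared 57 bases has more than 1 place in the genome and would enter the separate multimapping line of the table. These 3 counts are therefore uncertain, and where the counted reads lie is not given in the tables. Copies of these sequences outside annotated transcripts were not searched for. Whether the reads at the 5 genes came from a miRNA or from another RNA was not tested. Gm25732 (chr4:139338206-139338265), 38 bases from Gm24245, had 1 and 4 counts.

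Exons of host genes held the largest number of members. In 27 of 58 (46.6%) some or all bases were exonic in a longer gene on the same strand, and 19 of these lay wholly within exons. The share was 10.8% of the 963 undetected Gm-named genes, 26.6% of the detected and 16.1% of the undetected Mir-named genes. Bases of a UTR were covered by 18 members (31.0%), against 2.60% of undetected Gm-named and 6.92% of detected Mir-named genes. Coding bases were covered by 10 members (17.2%), against 3.01% and 6.36%. More of the exonic members thus held UTR bases than coding bases, and a few held both. With the RefSeq-named and small RNA genes set aside, 22 exonic members remained, with 128 reads between them in replicate 1 and 81 in replicate 2 (21.5 ± 4.68 CPM).

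The highest of these 22 was Gm26117 (chr15:74563821-74563915), within a UTR exon of Adgrb1, an adhesion receptor of brain, with 35 and 25 counts (6.19 ± 0.826 CPM). Its GC content of 91.6% was the highest of the 58. Gm24197 (chr8:84925525-84925633) begins in an intron of Mast1, a microtubule-associated kinase of neurons, and reaches 17 bases into a coding exon. Gm25745 (chr10:86705316-86705448) had 11 and 10 counts and spans UTR and coding bases of Hsp90b1, a chaperone of the endoplasmic reticulum. Gm23634 (chr4:134468364-134468454), with 66 of 91 bases in a UTR of the tubulin-binding gene Stmn1, and Gm47286 (chr6:87981614-87981741), with 24 of 128 bases in a UTR of the linker histone gene H1fx, each had 12 and 6 counts. Gm23394 (chr12:55821063-55821153), in a UTR of Ralgapa1, had 14 and 3 counts, and Gm27920 (chr10:123196876-123196971), on UTR and coding bases of the deubiquitinase gene Usp15, had 7 and 4. These genes stood between 6.19 and 1.13 CPM, and every one of them was counted in both libraries. The other 15 exonic members had 1 to 8 pooled counts, among them Gm25749 in the glutamate receptor gene Gria2 (0 and 2) and Gm27646 in Pink1 (1 and 0), a kinase of mitochondrial quality control. Whether the reads in exons are pieces of the host mRNA was not tested.

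**Figure D3:**
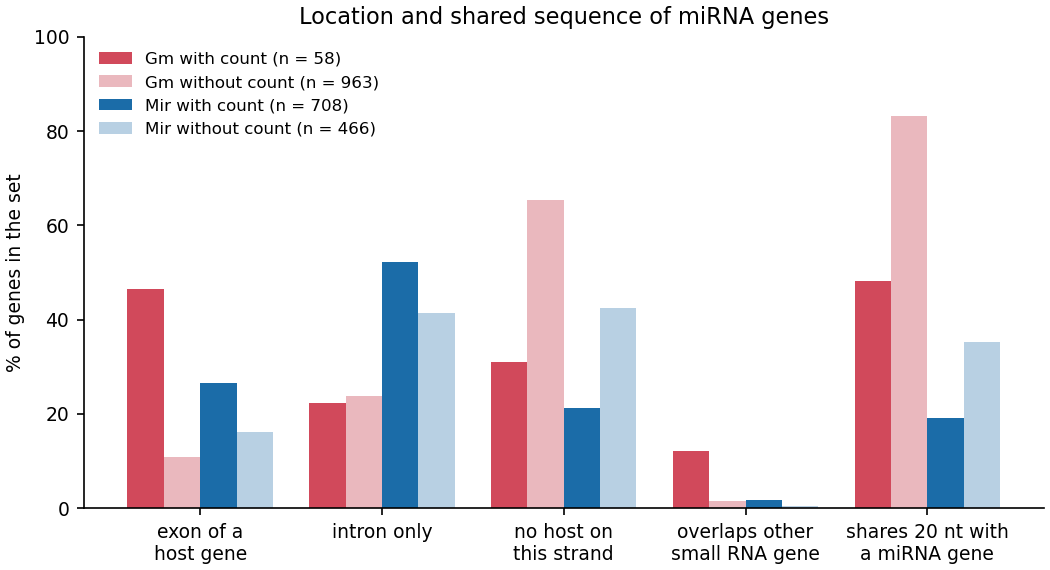
Share of genes (vertical axis, % of each set) that overlap an exon of a host on the same strand, lie only in its introns, have no such host, overlap another small RNA gene, or share 20 nucleotides with a miRNA gene, for Gm-named and Mir-named genes with and without a sense count. Detected Gm-named genes show 46.6% in exons and 12.1% over other small RNA genes, against 10.8% and 1.56% of undetected Gm-named genes.

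Introns alone held 13 members (22.4%), against 23.9% of undetected Gm-named genes and 52.1% of detected Mir-named genes. No host on their strand was found for 18 members (31.0%), against 65.3% and 21.3%. In all, 37 members lay wholly inside a gene on their own strand (34 inside a protein-coding one). Among genes with a host, exons were thus the more frequent place in the members and introns in the detected Mir-named genes. None of these differences was tested.

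Some members carry stretches of known miRNAs, of which those of the miR-344 family and those holding a whole mature miRNA are given here. Gm23873 (chr7:61750468-61750537, in an intron of the long non-coding gene A230057D06Rik) had 11 and 5 counts, and shares a stretch of 22 bases with Mir344d-1. Gm24923 (chr7:62078718-62078805), on the same chromosome and with no host, had 7 and 0 counts and holds the whole of mature miR-344i. In the sequences capitals mark these 2 stretches.
Gm23873: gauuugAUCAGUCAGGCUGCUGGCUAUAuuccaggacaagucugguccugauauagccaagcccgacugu
Gm24923: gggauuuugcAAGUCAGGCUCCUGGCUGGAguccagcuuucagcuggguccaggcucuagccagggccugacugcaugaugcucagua
The Mir344 genes beside them, Mir344h-2 at 8042 bases and Mir344i at 6417 bases, had no count. Gm24923 shares 20 nucleotides with Mir344f and Mir344i, and reads with more than 1 place enter no gene count. The 7 counts of Gm24923 are therefore not shown to be miR-344i, and the lack of counts at Mir344i is not shown to be absence. Gm22133, in the ferritin light chain gene Ftl1 (1 and 1 counts), holds mature miR-692. Gm22369 (0 and 1) and Gm26339 (1 and 0), both on chromosome 19, hold mature miR-690 and miR-3473b.

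The Sfmbt2 gene holds a multicopy miRNA cluster in one of its introns, and 48 Gm-named genes lay within it. Of these, 3 had a count, with 7 counts in all. Among all 1021 Gm-named genes the share with a count was 5.68%, so nothing particular to this cluster is read from that number. Gm22239 had 4 and 0 counts, Gm25263 had 0 and 2 and Gm22072 had 0 and 1. Mir669c, 480 bases from Gm25263, had 1154 and 1157. Gm25263 shares a stretch of 20 nucleotides with 17 other miRNA genes and Gm22072 with 45, while Gm22239 shares none. Of the 6 Gm-named genes between Meg3 and Mirg, the imprinted miRNA region of chromosome 12, none had a sense count. Given so few genes and the low share over all Gm-named genes, nothing is read from this either.

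Members with 1 to 9 pooled counts are named here where a miRNA gene within 10 kb had a higher level, so that order was fixed by the choice. Only the few nearest miRNA genes of each member were examined. Gm22239, in the Sfmbt2 cluster, had 39 miRNA genes within 10 kb, so a higher neighbour of it can be missed. Gm24155 had 0 and 1 counts, 791 bases from Mir137 with 26881 and 35826. Gm27646 lies 9779 bases from Mir7019 (88 and 62 counts) and Gm26339 5019 bases from Mir3085 (34 and 17). Gm22072 lies 2087 bases from Mir669e (18 and 62). The neighbours named in this paragraph ranged widely in level, from Mir3085 to Mir137, one of the tissue markers given above. Of those named elsewhere, Mirlet7d near Gm24111 stood higher (20534 CPM) and Gm25732 near Gm24245 lower (0.545 CPM). The other members with 1 to 9 pooled counts, for which no such neighbour was found, ranged from 1 to 8 counts.

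Among members, Gm24111 alone lies opposite another miRNA gene. It is on the plus strand at chr13:48537825-48537921 and overlaps 89 bases of Mirlet7f-1, a gene of the let-7 family. Its sense count was 0 in replicate 1 and 1 in replicate 2. On the other strand it had 729 and 1394 antisense counts, equal to the sense counts of Mirlet7f-1 in both libraries. Conversely, the 1 antisense count of Mirlet7f-1 in replicate 2 equals the sense count of Gm24111. The unstranded column lists 0 for Gm24111 in both libraries. In the sequence, capitals mark the reverse complement of mature let-7f-5p.
Gm24111: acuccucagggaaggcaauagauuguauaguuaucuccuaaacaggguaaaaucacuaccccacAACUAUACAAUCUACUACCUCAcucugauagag
Reads counted at the Mirlet7f-1 gene thus stand in the antisense column of Gm24111. Gm24111 also shares 20 nucleotides with Mirlet7a-1 and Mirlet7f-2, and reads with more than 1 place enter no gene count. Which part of the hairpin the counted reads cover is not given, so they are not shown to be mature let-7f-5p. Mirlet7a-1, 257 bases away, had 1457 and 1823 counts and Mirlet7d, 1710 bases away, had 93742 and 102246.

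The same layout was found at 8 further Gm-named genes, all with no sense count. At all 9 the antisense counts equalled the sense counts of the opposite gene in both libraries. The 5 undetected genes with the most were Gm25927 opposite Mirlet7e (140549 and 146457 antisense counts), Gm24083 opposite Mir191 (51118 and 45147), Gm25301 opposite Mir378a (14810 and 14860), Gm25252 opposite Mir376a (5632 and 12549) and Gm24321 opposite Mir409 (8686 and 4098). Apart from Gm24111, antisense counts of members came to 0 in replicate 1 and to 1 each at Gm28033 and Gm23134 in replicate 2.

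Many members share sequence with other genes. On either strand, 20 consecutive nucleotides recurred in a further miRNA gene at 28 of 58 members (48.3%), at 83.3% of undetected Gm-named genes and at 19.2% of detected Mir-named genes. Among the 16 members with 10 or more counts it was found at 4: Gm24270, Gm23935, Gm47295 and Gm23873. Multimapping reads, which enter no gene count, were 41.8% (replicate 1) and 46.4% (replicate 2) of the reads, so RNA of a gene with copies can go uncounted. Outside miRNA genes, 20 members shared 20 bases with an annotated transcript of another locus, 8 of them with transcripts of 10 or more genes, such as Gm22369 (376 genes), Gm26339 (375), Gm47298 (244) and Gm47314 (228). Of the members with 10 or more counts, Gm27920 (8 genes), Gm26117 (7), Gm47295 (3) and Gm47277 (2) were among the 20. Counts at all 20 are uncertain for the same reason.

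The members were rich in G and C. Their median GC content was 62.0% (quartiles 51.8% and 73.2%), against 50.0% in undetected Gm-named and 53.0% in detected Mir-named genes. The median predicted minimum free energy was -0.39 kcal/mol per nucleotide, against -0.32 in undetected Gm-named, -0.37 in undetected Mir-named and -0.43 in detected Mir-named genes. A fold with 1 hairpin loop was predicted for 28 members (48.3%), 56.5% of undetected Gm-named genes, 91.2% of undetected Mir-named genes and 95.5% of detected Mir-named genes. By median energy the members lay nearest the undetected Mir-named genes, and a smaller share of their folds was a single hairpin. This was not tested. GC content and folding energy are linked, and members share loci and sequences with each other.

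**Figure D4:**
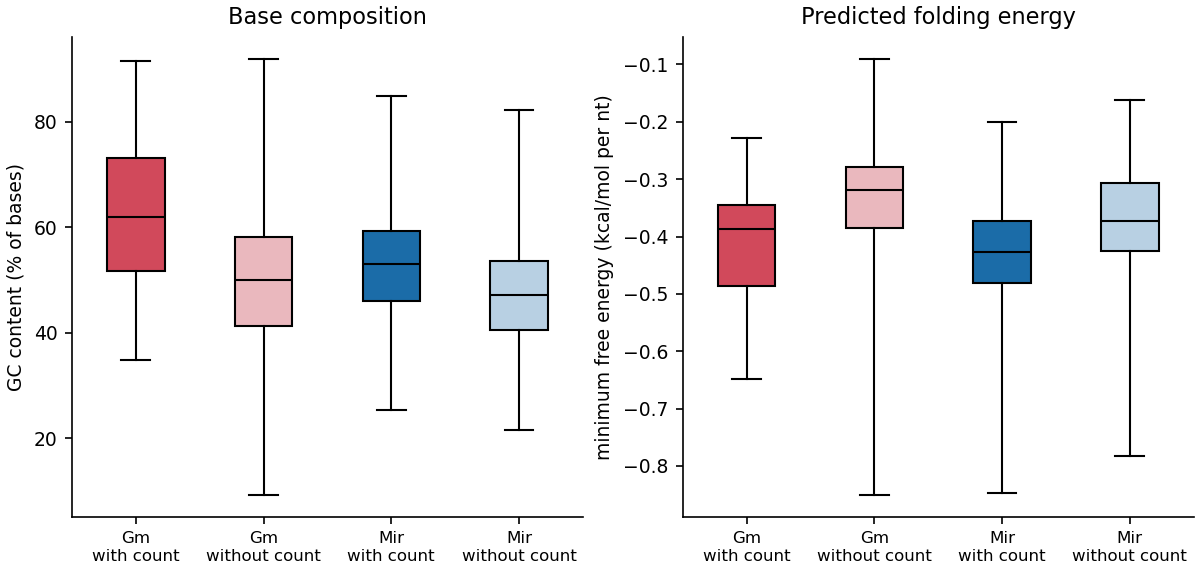
GC content (left, % of bases) and predicted minimum free energy per nucleotide (right, kcal/mol) of Gm-named and Mir-named miRNA genes with and without a sense count; lines are medians, boxes quartiles and whiskers the lowest and highest gene. The median GC content is 62.0% for detected Gm-named genes and 53.0% for detected Mir-named genes.

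Between the libraries, 13 of the 16 members with 10 or more counts were lower in replicate 2 on the scale of sense totals, against 59.0% of all 512 miRNA genes with that many counts (54.3% with TMM scaling and 50.6% with DESeq2 size factors, 13 of 16 in both). The exceptions were Gm49347, Gm24270 and Gm25745. The median log2 ratio of replicate 2 to replicate 1 was -0.55 for the 16 and -0.23 for the 512. A difference past 2-fold was seen at 2 of the 16, Gm23394 (log2 ratio -1.84) and Gm47295 (-1.03), against 30.3% of the 512. Gm47295 fell inside 2-fold with TMM scaling (-0.90), with DESeq2 size factors (-0.83) and with 1 added to each count (-0.99), while Gm24270 passed it with TMM scaling (1.01) and DESeq2 size factors (1.09). Gm23450 had a log2 ratio of -0.58, and the highest ratio was 0.88 at Gm24270. As the libraries are replicates of 1 group, these values describe their spread and not an effect.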

How the data were processed

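MicroRNA-seq was deposited for 2 libraries of left cerebral cortex, 1 table of read counts each. The authors' counts are not normalized; per the deposited file descriptions they use mm10 and GENCODE M21, with aligner and counter not given in the sources used here. Both tables list 2202 genes and 4 lines that name no gene, which held 65.2% of 14842903 reads in replicate 1 and 65.1% of 12785704 in replicate 2 and were left out of library sizes. Sense totals were 5166667 and 4459993. Of the stranded columns, the one with the larger total was read as sense, since the descriptions name no strand. Symbols, hosts and exons came from GENCODE M21, mature miRNAs and transfer RNA genes from RefSeq (GRCm38.p6, the same build), and folds from RNAfold 2.7.2. Log2 ratios add 0.5 to each count. TMM (edgeR 4.0.16) and DESeq2 1.42.0 scaling were alternatives. The log2 ratio formula and the search for shared stretches were tested on simulated data, and the other steps were not. Intervals cover counting error only. No group contrast exists, so no test was made. Members with 10 or more pooled counts were named, with every member opposite a miRNA gene. Below 10 counts, members were named if a higher miRNA gene was among the few nearest within 10 kb. Other names were chosen after their values were seen. The members and lists were chosen with earlier results of these data known.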

Additional observations from a re-analysis of the deposited data

Results flagged for a closer look

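Antisense counts stand outside the measure used for the levels of Gm-named genes, and at 9 of these genes they exceeded the limit of 3 counts in both libraries. At all 9 they equalled the sense counts of the opposite miRNA gene, so they hold no counts beyond those behind its level. Summed over both libraries they were 287006 at Gm25927, 96265 at Gm24083, 29670 at Gm25301, 18181 at Gm25252, 12784 at Gm24321, 2123 at Gm24111, 2123 at Gm25750, 372 at Gm44322 and 169 at Gm25641. Gm25750 lies opposite Mir380, Gm44322 opposite Mir539 and Gm25641 opposite Mir9-1. The equal sums at Gm24111 and Gm25750 belong to different loci and to different counts per library, 729 and 1394 at the first and 677 and 1446 at the other.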

How the results depend on the processing

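The number of detected Gm-named genes fell from 58 to 31 when 3 or more pooled counts were required and to 16 with 10 or more, and the number counted in both libraries from 28 to 16 with 10 or more. With replicate 1 or replicate 2 left out, 45 or 41 genes were detected. Genes at 2 CPM or more numbered 9 in both libraries, 9 without replicate 1 and 14 without replicate 2. The summed level of 477.9 CPM was 166.5 CPM with all reads of the table as denominator, 396.0 and 559.7 CPM with 1 library left out, and 91.0 CPM without Gm23450, a setting added after seeing the data. In the same way, 13 of 16 members were lower in replicate 2 with TMM, with DESeq2 size factors and with 1 added to each count, although TMM and DESeq2 shifted the median log2 ratio of all genes by 0.13 and 0.20. Of the 150 planned and 4 added alternatives, 22 and 1 moved a level by more than its SD between libraries or a count by more than 1.5 times. No log2 ratio changed sign, while counts and levels cannot change sign. With 2 libraries, leaving 1 out always moves a mean level by less than its SD. Levels could therefore not be labelled as moved in those settings, and nothing is read from their stability. Gm47295 and Gm24270 changed sides of a 2-fold difference with the scaling. The number counted in both libraries has no value with 1 library left out. No paired analysis was possible because there is 1 group. Most members rest on few reads, so their absence from 1 library is not detectable as a difference at this depth.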
